A study of Mus musculus with 22 samples.

Results

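Vascular genes were followed through 22 bulk RNA-seq libraries of mouse renal capsule and macrophages. The set held 10 genes, 7 of endothelial cells (Pecam1, Cdh5, Kdr, Tek, Emcn, Plvap and Ehd3) and 3 of pericytes (Pdgfrb, Cspg4 and Rgs5), out of 52636 genes in the deposited count table. They were chosen by symbol, with earlier results of these data known, and matched to 1 Ensembl mouse gene each. No measured value entered the rule of choice. The titles give 6 groups: RCAM libraries of aged and of young mice (4 each), macrophages of the renal capsule and of the kidney (4 each), and capsule tissue of aged and of young mice (3 each). The treatment is listed as none in all groups, and no difference in genotype or strain between them is given. RCAM is not spelled out. The labels list these libraries as whole tissue, whereas the series text speaks of capsules dissected from young and old mice and of macrophages sorted from them by flow cytometry. No age in weeks, sex or batch was given, and the macrophage groups have no age label at all. Whether replicates came from separate mice is not stated, and the p-values then measure only library-to-library spread, which may be technical.

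Endothelial cells line blood and lymph vessels, and pericytes are the mural cells wrapped around capillaries. Endothelial cells signal to pericytes through PDGF-B and its receptor, and pericytes signal back through angiopoietin and Tie2. In the kidney, endothelium is specialised by site, from the fenestrated glomerular capillaries to the peritubular network, and the capsule has small vessels of its own.

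Tek, the gene of Tie2, and Rgs5, a pericyte gene of G-protein signalling, are shown with the bases before their starts because both were higher in aged than in young RCAM libraries and their age differences exceeded those in capsule tissue. Ehd3 met the same conditions but is not printed, because all 250 bases before its RefSeq start lie in annotated exons. The stretches are the 250 bases before the RefSeq start on GRCm38.p6, written 5′ to 3′ on the gene's plus strand, at chr4:94739039-94739288 for Tek and chr1:169655251-169655500 for Rgs5. Capitals mark GGAA or TTCC, the core letters bound by ETS transcription factors read on either strand, which are background knowledge of endothelial promoters.
Tek: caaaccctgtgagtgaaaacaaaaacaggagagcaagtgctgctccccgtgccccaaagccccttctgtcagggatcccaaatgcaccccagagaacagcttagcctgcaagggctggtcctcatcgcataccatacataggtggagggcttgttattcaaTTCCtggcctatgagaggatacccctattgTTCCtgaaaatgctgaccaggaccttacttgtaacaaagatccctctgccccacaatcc
Rgs5: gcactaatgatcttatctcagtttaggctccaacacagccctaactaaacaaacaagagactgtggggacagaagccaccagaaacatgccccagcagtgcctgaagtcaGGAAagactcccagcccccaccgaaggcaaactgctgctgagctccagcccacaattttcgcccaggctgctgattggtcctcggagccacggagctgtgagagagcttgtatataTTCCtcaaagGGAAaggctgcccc
The Tek stretch held 2 matches and the Rgs5 stretch 3. Such matches were common: 93.4% of 32851 RefSeq promoter windows of the same length held at least 1, the median window held 3, 76.8% held at least as many as Tek and 54.7% at least as many as Rgs5. RefSeq promoter entries were matched for 6 of the 10 genes.

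On GRCm38, the cell adhesion gene Pecam1 (ENSMUSG00000020717) lies at chr11:106654217-106750628 on the minus strand, and Cdh5 (ENSMUSG00000031871), which encodes VE-cadherin of endothelial junctions, at chr8:104101625-104144511 on the plus strand. The receptor genes are Kdr (ENSMUSG00000062960, chr5:75932827-75978458, minus), encoding VEGF receptor VEGFR-2, and Tek (ENSMUSG00000006386, chr4:94739289-94874976, plus), encoding the angiopoietin receptor Tie2. Emcn (ENSMUSG00000054690, chr3:137341067-137432185, plus) encodes endomucin, a sialomucin of capillary and venous endothelium. Plvap (ENSMUSG00000034845, chr8:71497765-71511752, minus) encodes the protein of the diaphragms of fenestrae and caveolae. Ehd3 (ENSMUSG00000024065, chr17:73804134-73832094, plus) encodes an endocytic trafficking protein that in kidney marks glomerular endothelium. Among pericyte genes, Pdgfrb (ENSMUSG00000024620, chr18:61045150-61085061, plus) encodes the PDGF-B receptor, also present on fibroblasts. Cspg4 (ENSMUSG00000032911, chr9:56865033-56899870, plus) encodes the NG2 proteoglycan, and Rgs5 (ENSMUSG00000026678, chr1:169655501-169695813, plus) a regulator of G-protein signalling. No exon of these genes overlapped an exon of another gene. The spans of Cdh5 and Plvap overlapped those of Gm29682 and Gtpbp3 on the opposite strand.

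Library totals, in M (1000000 counts), were 45.0 to 51.8 in aged RCAM, 49.8 to 54.4 in young RCAM, 39.3 to 53.4 in macrophages of the capsule, 31.8 to 49.9 in those of the kidney, 27.1 to 43.2 in aged and 20.6 to 22.2 in young tissue. Levels below are counts per M of the library total (CPM), and errors of levels are the SD between a group's libraries. The sum of 8 macrophage genes was 26429 to 31763 CPM in aged and 27225 to 30839 CPM in young RCAM libraries, near the 25166 to 28560 CPM of capsule macrophages, and 2883 to 5773 CPM in aged and 1359 to 2785 CPM in young capsule tissue. Adipoq, an adipocyte hormone gene, stood at 4.43 to 9.36 CPM in aged and 1.02 to 4.46 CPM in young RCAM libraries, against 2723 to 3029 CPM in aged and 2009 to 3265 CPM in young capsule tissue. RCAM libraries are therefore described by their title and not as whole tissue. Some widely expressed genes were at 0 outside the tissue: Stub1, encoding a ubiquitin ligase, and Chmp1a, encoding a membrane-remodelling protein, had no read in any RCAM or macrophage library and 82.5 and 87.4 CPM in aged tissue. An exact 0 in those libraries therefore does not by itself show that the RNA was lacking, and the cause was not tested.

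Capsule tissue expressed all 10 genes, at 28.5 to 315 CPM in aged and 17.8 to 321 CPM in young libraries, and every gene was highest there. Per kilobase of exon, the mean level in aged tissue ran from Plvap (102 CPM per kb) through Cdh5 (39.6), Rgs5 (33.0), Pecam1 (28.8), Tek (22.1), Pdgfrb (18), Kdr (15.8), Emcn (13.1) and Ehd3 (8.99) to Cspg4 (3.22). In young tissue Plvap was also first at 56.5 CPM per kb, followed by Rgs5 at 43.9 and Cdh5 at 35.3, and Ehd3 at 3.37 stood just above Cspg4 at 3.22. For each gene, the lowest tissue library was above the highest library of every RCAM or macrophage group. Below the tissue, the order of groups differed by gene and most neighbours overlapped. Ranges of neighbouring groups were apart for Tek between aged RCAM and capsule macrophages, for Emcn between kidney macrophages and aged RCAM, and for Ehd3 between aged and young RCAM. They were also apart between capsule and kidney macrophages, capsule lower, for Pecam1, Plvap and Cspg4. Within tissue, the aged range was above the young one for Tek and Ehd3 alone.

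**Figure D1:**
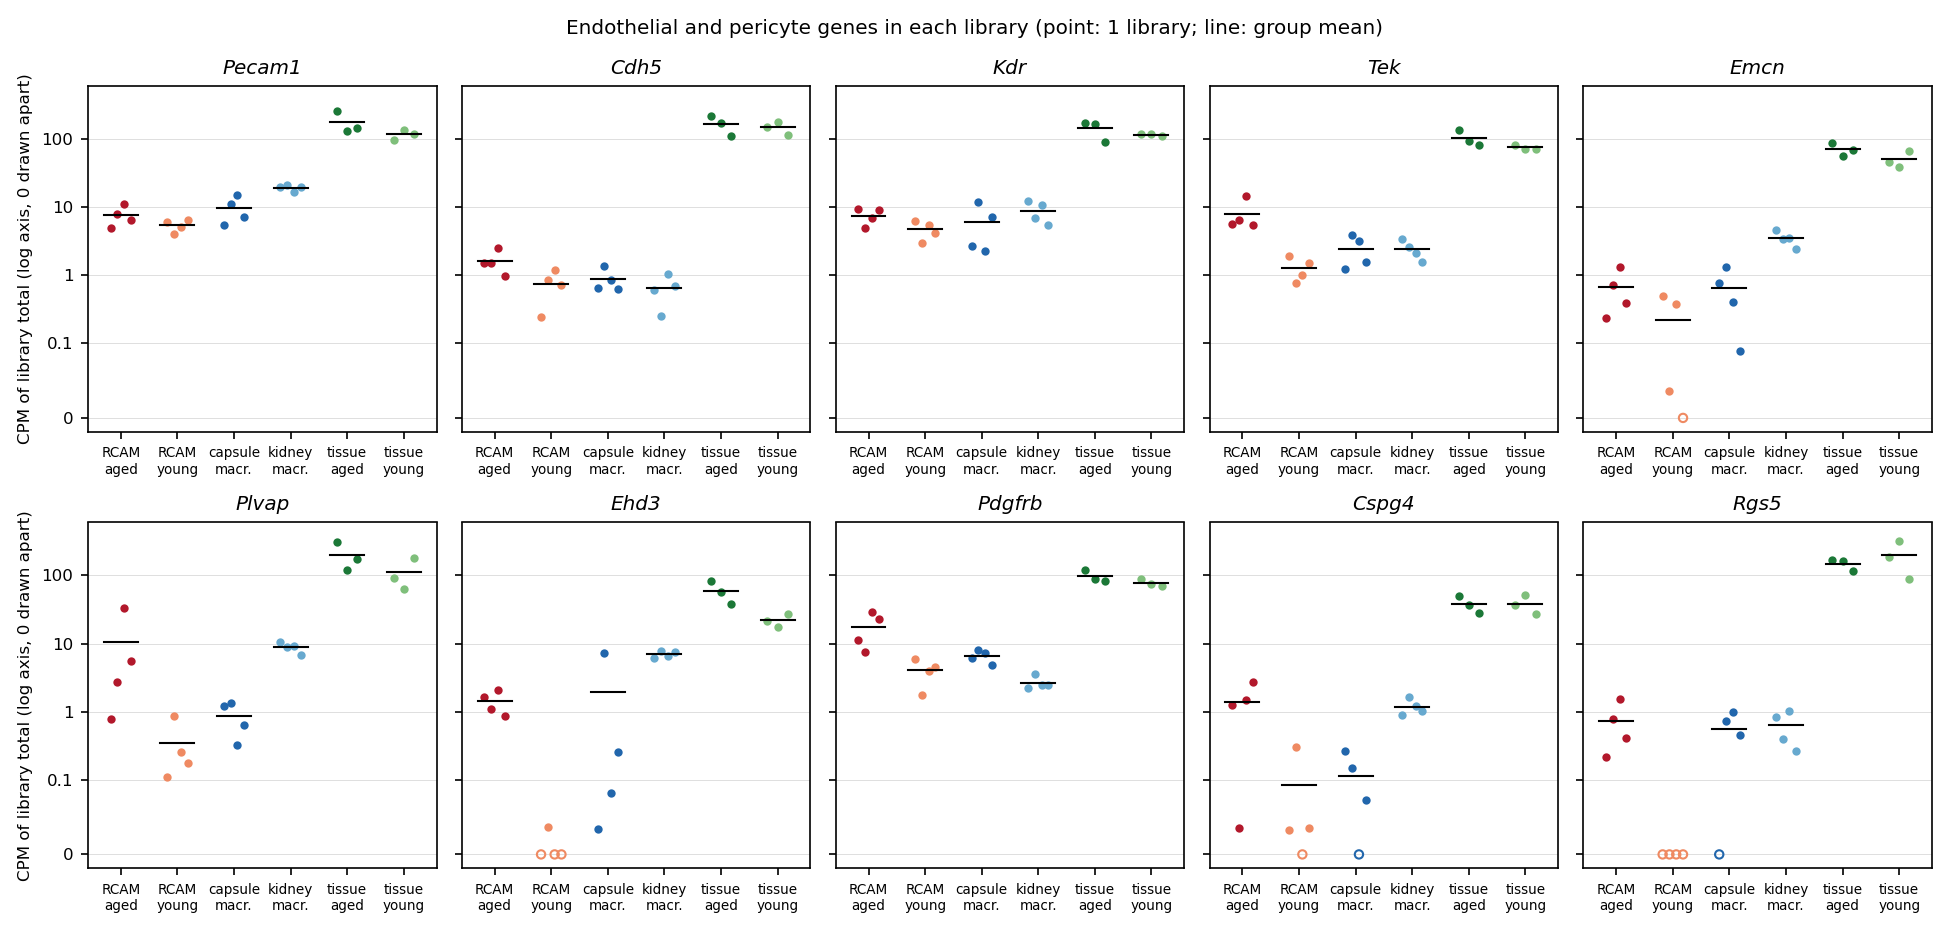
CPM of each gene (log axis, with 0 drawn apart as open circles) in every library of the 6 groups, with lines at group means. The 6 capsule tissue libraries of each gene lie above all others, and Ehd3 and Rgs5 have 1 and 0 reads in the 4 young RCAM libraries together.

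Young RCAM libraries were lower than young capsule tissue for all 10 genes (edgeR quasi-likelihood test, adjusted p = 1.09e-06 to 5.6e-05, n = 4 and 3), and 40.6% of the 17491 genes tested were called lower in the same comparison. The 2 groups did not overlap for any of the 10, as for 45.7% of all genes in that direction. The expression filter asked for 0.201 CPM in 3 libraries. Emcn and Plvap had 2 young RCAM libraries at it, Cspg4 had 1, and Ehd3 and Rgs5 had 0, so these genes were tested only through tissue. For Ehd3 and Rgs5 a difference was thus a condition of being tested. The median log2 fold change of the 10 genes was -7.46, against -0.14 over all genes. Levels in young RCAM, as a percent of the young tissue mean, were 5.15 for Pdgfrb, 4.61 for Pecam1, 4.06 for Kdr, 1.72 for Tek, 0.499 for Cdh5, 0.440 for Emcn, 0.313 for Plvap, 0.220 for Cspg4 and 0.0227 for Ehd3. Without young RCAM library 2 the value was 0.161 for Plvap and 0.0330 for Cspg4, and without library 1 it was 0.259 for Emcn; the value of Ehd3 is a single read of library 2. Rgs5 had no read in the 4 young RCAM libraries together. With 3 counts over the group in place of 0, it was 13612-fold lower. The 95% upper limit of its ratio to tissue was 9.03e-05, for counting error only. As stated for Stub1 and Chmp1a, an exact 0 here does not by itself show that the RNA was lacking. Endothelial genes and pericyte genes alike covered a wide range, and Pdgfrb and Rgs5, both pericyte genes, stood at its ends. In bulk libraries, fewer cells of a type and less RNA per cell cannot be told apart.

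Aged RCAM libraries were also lower than aged capsule tissue for all 10 genes (edgeR, adjusted p up to 0.00992), where 38.5% of the 17595 genes tested were called lower. No aged RCAM library reached the tissue range of any of the 10, as for 46.1% of all genes. The median log2 fold change was -4.35 for the 10 genes and -0.16 over all genes. The aged RCAM mean, as a percent of the aged tissue mean, was 17.9 for Pdgfrb, 7.70 for Tek, 5.26 for Kdr, 5.22 for Plvap, 4.24 for Pecam1, 3.59 for Cspg4, 2.39 for Ehd3, 0.970 for Cdh5, 0.938 for Emcn and 0.493 for Rgs5. Plvap rested on aged RCAM library 3, without which its value was 1.48% and its log2 fold change -5.73 in place of -3.92. Cspg4 was 2.39% without aged RCAM library 4, and Rgs5 0.316% without library 3. Pdgfrb had the largest share at both ages. The labels describe a regular-input and a low-input library kit for every sample without saying which was used where, so kit and sample type cannot be told apart in the comparisons with tissue.

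Aged RCAM libraries were higher than young RCAM libraries for 5 of the 10 genes, 3 of them endothelial (Tek, Plvap and Ehd3) and 2 of pericytes (Pdgfrb and Rgs5), at an adjusted p under 0.05 (edgeR, n = 4 each). The other 5 did not pass, and the fitted log2 fold change was positive for all 10. Over the 15182 genes tested, 4.8% were called and 3.43% were called higher, and the libraries of 7.55% were higher without overlap, as they were for Tek, Ehd3, Pdgfrb and Rgs5. The median log2 fold change was 2.34 for the 10 genes and -0.01 over all genes. Ehd3 and Rgs5 reached the expression filter of 0.199 CPM in 4 libraries only through the aged group, so for them a difference was a condition of being tested. Plvap and Emcn had 2 young libraries at it and Cspg4 had 1, so these genes too needed aged libraries to be tested. The count of 5 is a description and does not support a difference of the set.

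Tek, the angiopoietin receptor gene, had 5.67, 6.41, 14.6 and 5.40 CPM in aged RCAM and 1.91, 0.762, 0.997 and 1.49 CPM in young RCAM libraries. Every aged library was above every young one, and aged library 3 stood apart at the top. The ratio of the pooled levels was 6.08 (95% interval 5.34 to 6.95, counting error only), and the log2 fold change was 2.60 ± 0.42 (SE; edgeR, adjusted p = 0.00821). The call held with each library left out in turn (adjusted p up to 0.0306).

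Ehd3, the glomerular endothelial gene, had 1.67, 1.08, 2.05 and 0.849 CPM in aged RCAM, against 0, 0.0201, 0 and 0 CPM in young RCAM libraries. Those are 265 reads in the aged libraries and a single read in the young ones. The groups did not overlap, and 1 read in 4 libraries gives a pooled ratio of 289 with a wide counting interval of 51.3 to 11441. The fitted log2 fold change of 7.56 ± 0.81 depends on the prior count of the fit and is no bound (edgeR, adjusted p = 0.00142, at most 0.00753 with a library left out).

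Plvap, the fenestral diaphragm gene, had 0.791, 2.72, 33.4 and 5.49 CPM in aged RCAM and 0.110, 0.863, 0.254 and 0.177 CPM in young RCAM libraries. The ranges overlapped, since the lowest aged library was below the highest young one, and a single aged library carried most of the reads. The log2 fold change was 4.90 ± 1.16 (edgeR, adjusted p = 0.0412), and without aged library 3 it was 3.07 (adjusted p = 0.0785). The call was also lost without aged library 4 (0.0661) and without young library 1, 2, 3 or 4 (0.0562 to 0.115).

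The junction and adhesion genes did not pass the test. Cdh5 averaged 1.61 ± 0.65 CPM in aged and 0.741 ± 0.387 CPM in young RCAM libraries, the log2 fold change was 1.12 ± 0.49 (edgeR, adjusted p = 0.269), and its ranges overlapped. Pecam1 averaged 7.60 ± 2.69 CPM in aged and 5.38 ± 1.07 CPM in young RCAM libraries (log2 fold change 0.47 ± 0.27, adjusted p = 0.427). Kdr, the VEGF receptor gene, averaged 7.51 ± 2.07 CPM in aged and 4.70 ± 1.41 CPM in young ones (0.64 ± 0.28, adjusted p = 0.264), and endomucin's Emcn 0.663 ± 0.476 CPM in aged and 0.222 ± 0.250 CPM in young ones (1.53 ± 1.05, adjusted p = 0.527). The ranges of Pecam1, Kdr and Emcn overlapped too. Among endothelial genes, the pooled ratio of aged over young RCAM thus ran from 1.40 for Pecam1, 1.57 for Kdr, 2.19 for Cdh5 and 2.90 for Emcn up to 29.6 for Plvap and the nearly one-sided reads of Ehd3.

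Pericyte genes also differed among themselves. Pdgfrb, the receptor gene, had 11.4, 7.45, 28.8 and 22.7 CPM in aged RCAM and 5.99, 1.75, 3.93 and 4.48 CPM in young RCAM libraries. No aged library fell into the young range. The pooled ratio was 4.21 (95% interval 3.90 to 4.54, counting error only) and the log2 fold change 2.08 ± 0.47 (edgeR, adjusted p = 0.0324), and the call was lost without aged library 3 (log2 fold change 1.73, adjusted p = 0.0776), aged library 4 (1.95, 0.0864) or young library 2, 3 or 4 (1.84, 2.05 and 2.14, adjusted p = 0.0639 to 0.0853).

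Rgs5 had 0.214, 0.792, 1.53 and 0.414 CPM in aged RCAM and no read in any young RCAM library. Against a floor of 3 counts over the young group, its pooled level was 50.5-fold higher in aged libraries, which held 139 reads. With the counting error of those reads, the 95% lower limit of that ratio was 40.5. Its fitted log2 fold change of 8.19 ± 1.24 is no bound (edgeR, adjusted p = 0.0149, at most 0.0364 with a library left out). Cspg4, the NG2 gene, had 1.26, 0.0193, 1.47 and 2.77 CPM in aged and 0.0184, 0.301, 0 and 0.0197 CPM in young RCAM libraries. Its second aged library held 1 read and lay within the young range, and the log2 fold change of 3.96 ± 1.33 did not pass (edgeR, adjusted p = 0.140). Without young library 2 it was 6.46 (adjusted p = 0.0571), and with any other library left out it was 3.38 to 4.38 (adjusted p = 0.0579 to 0.302).

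Other cell types' genes moved with this comparison. Of 8 fibroblast genes, 4 were called higher in aged RCAM, among them Dcn (669 ± 232 CPM in aged, 175 ± 37.3 CPM in young), a collagen-binding proteoglycan gene. The 8 fibroblast genes summed to 1207, 878, 2191 and 2543 CPM in aged and 617, 517, 725 and 708 CPM in young RCAM libraries, with none of the 8 at 0 in any of them. The aged libraries highest in fibroblast genes, libraries 3 and 4, were also the highest in Pdgfrb. Of 5 smooth muscle genes tested 1 was called, Mylk, a myosin kinase gene (69.8 ± 11.3 CPM in aged, 26.8 ± 5.11 CPM in young). Of 7 adipocyte genes 1 was called, Fabp4 (42.2 ± 10.9 CPM in aged, 14.8 ± 2.07 CPM in young), which capillary endothelium also expresses. None of 8 macrophage genes (median log2 fold change 0.01), 7 proximal tubule genes or 5 platelet genes was called by edgeR, DESeq2 or limma-voom, and 1 macrophage gene had an unadjusted p under 0.05. The part of other cells in the vascular gene differences was not tested.

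In the wider vascular lists the number of calls depended on the tool. Of 26 endothelial genes other than the 7, 20 passed the filter and 1 was called, Ly6c1 (8.33 ± 5.0 CPM in aged and 2.30 ± 0.416 CPM in young RCAM, log2 fold change 1.83 ± 0.37, edgeR adjusted p = 0.0205). The median of those 20 was 1.57, with 17 positive, 10 at an unadjusted p under 0.05, 7 called by DESeq2 and 2 by limma-voom. All 26 summed to 197 to 278 CPM in aged and 138 to 154 CPM in young RCAM libraries, and 1 to 2 of them were at 0 in an aged library and 5 to 9 in a young one. Flt1, the gene of VEGF receptor VEGFR-1, had 1.0 to 4.0 CPM in aged RCAM and 0.0367 to 15.3 CPM in young RCAM libraries, where the highest value came from young library 2 (log2 fold change -0.96 ± 1.16, adjusted p = 0.765). Of the 15 other pericyte genes, 10 were tested and none was called by edgeR (median 1.34), with 4 at an unadjusted p under 0.05, 3 called by DESeq2 and 1 by limma-voom. The sum of the 15 was 62.3 to 76.5 CPM in aged and 40.4 to 55.8 CPM in young RCAM libraries. Notch3, a mural cell receptor gene, had 0.449, 0.367, 0.601 and 1.35 CPM in aged and 0.221, 0, 0 and 0.0197 CPM in young ones (adjusted p = 0.126).

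Several genes of the VEGF and PDGF families also passed. Vegfd, Vegfc and Vegfa, whose products bind VEGF receptors, rose (3 of 6 VEGF ligand and co-receptor genes tested). Vegfd averaged 10.6 ± 3.66 CPM in aged and 1.55 ± 0.736 CPM in young RCAM (log2 fold change 2.73 ± 0.38, edgeR adjusted p = 0.00408), and Vegfc 3.34 ± 1.14 CPM in aged and 0.344 ± 0.245 CPM in young RCAM (3.26 ± 0.49, adjusted p = 0.0056). Of 5 PDGF genes, Pdgfra, the sister receptor carried by fibroblasts, and the ligand genes Pdgfd and Pdgfb were called higher. Pdgfb, the ligand gene of Pdgfrb, averaged 23.5 ± 7.30 CPM in aged and 12.3 ± 1.46 CPM in young RCAM (0.91 ± 0.20, adjusted p = 0.0331). Neither of the 2 angiopoietin ligand genes tested was called by edgeR, with 1 at an unadjusted p under 0.05 and 1 called by DESeq2. Among kidney endothelial genes 1 of 8 was called, Plat, encoding tissue plasminogen activator, at 19.9 ± 12.7 CPM in aged and 3.03 ± 0.941 CPM in young RCAM (2.68 ± 0.43, adjusted p = 0.00806). Nr2f2, a venous identity factor, was the 1 of 8 venous and capillary genes called (1.35 ± 0.29, adjusted p = 0.0262), and none of 3 arterial genes was (2 at an unadjusted p under 0.05, 1 called by DESeq2).

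Aged and young capsule tissue were compared in the same way. None of the 10 genes was called by edgeR (n = 3 each) or limma-voom, and 1, Ehd3, had an unadjusted p under 0.05 and was called by DESeq2. Over the 16350 genes tested, 0.239% were called, which were 39 genes, and 2196 were called with the replicate number as a block. The median log2 fold change was 0.28 for the 10 genes, against 0.03 over all genes. Ehd3 came nearest, with 82.2, 56.6 and 37.9 CPM in aged tissue and 21.8, 17.8 and 26.7 CPM in young tissue. The groups did not overlap, nor did those of Tek, which had 137, 92.9 and 82.9 CPM in aged and 81.5, 71.3 and 72.3 CPM in young tissue, and 19.1% of all genes tested were higher without overlap. For Ehd3 the log2 fold change was 1.28 ± 0.27 (edgeR, adjusted p = 0.0799, unadjusted p = 0.0013), and 1.25 with an adjusted p of 0.0223 with the block. DESeq2 gave it an adjusted p of 0.00131. Same-numbered libraries deviated together in capsule tissue, which is where the block comes from, and the labels do not say that a number marks a shared mouse or day.

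Plvap had 315, 118 and 176 CPM in aged tissue and 90.9, 63.2 and 182 CPM in young tissue, overlapping (log2 fold change 0.72 ± 0.45, edgeR adjusted p = 0.378). Cdh5 had 217, 171 and 111 CPM in aged and 150, 180 and 115 CPM in young tissue, nearly the same range (0.03 ± 0.27, adjusted p = 0.960), and the sign of its small difference changed with the scaling. Rgs5 had 170, 163 and 117 CPM in aged and 188, 321 and 88.8 CPM in young tissue, so the young range enclosed the aged one (-0.54 ± 0.42, adjusted p = 0.486). The remaining genes had log2 fold changes of -0.14 for Cspg4 to 0.48 for Pecam1. None of the 20 gene lists had a called member in tissue by edgeR without the block; of the 26 other endothelial genes 5 had an unadjusted p under 0.05 and 1 was called by DESeq2, and of the 15 other pericyte genes none had either. The block changed these calls: with it 1 of the 26 endothelial genes, 1 of the 15 pericyte genes, 3 of 8 smooth muscle genes, 6 of 8 macrophage genes, 7 of 7 proximal tubule genes and 5 of 5 erythroid genes were called. The block also called 1 of 8 arterial, 2 of 10 venous and capillary, 2 of 10 kidney endothelial, 1 of 7 VEGF and 2 of 5 podocyte genes. DESeq2 called 6 of the proximal tubule genes, 5 of the erythroid genes, 2 of the macrophage genes and 1 of the smooth muscle genes. It also called 1 arterial, 2 venous and capillary, 1 kidney endothelial, 1 VEGF, 1 podocyte, 2 fibroblast and 1 adipocyte gene. Beside these values, 7 proximal tubule genes summed to 1227 to 6065 CPM in aged and 6310 to 24719 CPM in young tissue, and macrophage genes to the ranges given above. Adrenal cortex genes reached 5919 CPM in aged library 2 and 179 CPM in young library 2. The part of these cells in the tissue values was not tested.

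The age difference in RCAM libraries was set against that in capsule tissue by an interaction test, which shares its libraries with the comparisons above. It called 3 of the 10 genes, all in the direction of a larger aged-over-young difference in RCAM, among 18856 genes tested of which 5.05% were called and 3.12% in that direction. The difference of the log2 fold changes was 6.26 ± 0.76 for Ehd3 (edgeR, adjusted p = 0.00328), 8.60 ± 1.64 for Rgs5 (adjusted p = 0.0241) and 2.30 ± 0.50 for Tek (adjusted p = 0.0265). For Ehd3 and Rgs5 these sizes carry the same dependence on the prior count. Tek did not pass without young tissue library 1 (adjusted p = 0.0545), aged tissue library 1 (0.0548) or both tissue libraries of number 2 (0.0739), and Rgs5 not without aged tissue library 1 (0.056). Pdgfrb (1.92 ± 0.59, adjusted p = 0.0717), Cspg4 (4.15 ± 1.29, 0.0752) and Plvap (4.22 ± 1.40, 0.0926) did not pass. Without aged RCAM library 2, Pdgfrb (2.17, 0.0384) and Cspg4 (4.56, 0.0232) did, and Cspg4 also without young RCAM library 2 (6.61, 0.0404). With the replicate block, Pdgfrb passed as well (0.0338). Pecam1 stood at 0.04, with a sign that changed with the scaling. Of the other 26 endothelial genes, 2 were called, Ly6c1 (1.80 ± 0.46, adjusted p = 0.0406) and Ecscr, an endothelial surface protein gene (6.96 ± 1.09, 0.0142), and 1 of the 15 other pericyte genes, the Notch target Heyl.

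**Figure D2:**
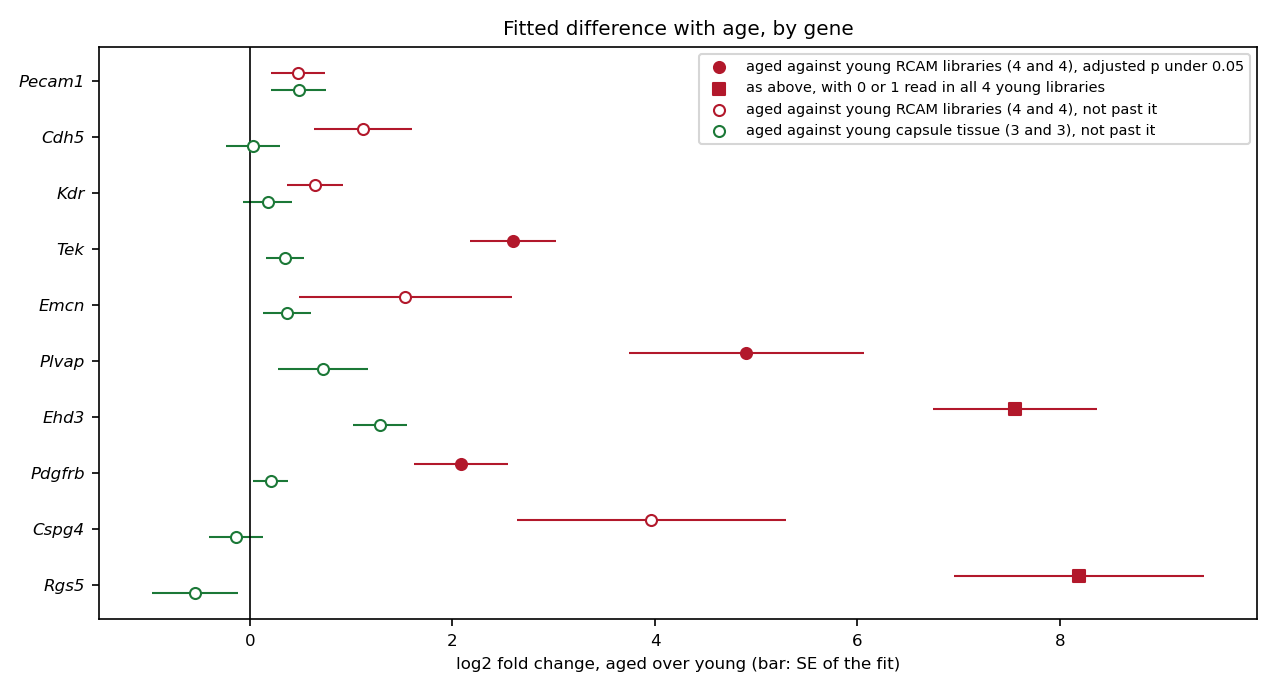
Fitted log2 fold change of aged over young for each gene, in RCAM libraries (red) and capsule tissue (green), with SE bars; filled symbols passed an adjusted p of 0.05, and squares mark genes with 0 or 1 read in the 4 young RCAM libraries, whose size is not a bound. Tissue values lie between -0.54 and 1.28 and none passed, while RCAM values lie between 0.47 and 8.19.

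Macrophages of the capsule and of the kidney differed in 5 of the 10 genes (edgeR, n = 4 each), with Pdgfrb higher and Pecam1, Emcn, Plvap and Cspg4 lower in capsule macrophages. Differences were common here: 55.4% of the 15701 genes tested were called, 27.3% higher and 28.2% lower, so the share of the 10 genes was near that of all genes. The libraries of 18.9% of genes were higher and of 35.1% lower in the capsule without overlap, as they were for the same 5. The median log2 fold change was -0.54 for the 10 genes and -0.03 over all genes.

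Plvap had 1.22, 1.33, 0.323 and 0.636 CPM in capsule macrophages and 10.5, 9.02, 9.26 and 6.86 CPM in kidney macrophages. The groups were far apart, by 9.98-fold in pooled level (log2 fold change -3.12 ± 0.40, edgeR adjusted p = 8.63e-05). Emcn was lower as well, at 0.768, 1.31, 0.409 and 0.0763 CPM in capsule and 4.6, 3.39, 3.49 and 2.43 CPM in kidney macrophages (-2.22 ± 0.61, adjusted p = 0.0103).

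Pecam1, which leukocytes and platelets also express, had 5.47, 11.3, 15.2 and 7.20 CPM in capsule macrophages and 19.7, 20.8, 16.5 and 19.5 CPM in kidney macrophages. The highest capsule library came close to the lowest kidney one, and the call (log2 fold change -0.76 ± 0.28, edgeR adjusted p = 0.0371) was lost without capsule library 1 (0.0615) or 4 (0.0942) or kidney library 1 (0.0708), 2 (0.0873) or 4 (0.0731). Cspg4 had 0.262, 0.148, 0 and 0.0509 CPM in capsule and 0.897, 1.65, 1.19 and 1.02 CPM in kidney macrophages, 22 against 201 reads (-3.10 ± 0.78, adjusted p = 0.00635). It reached the expression filter of 0.225 CPM in 4 libraries only through the kidney group, with 1 capsule library at it. For Cspg4 a difference was thus a condition of being tested. Emcn and Rgs5 had 3 capsule libraries at the filter and Ehd3 had 2, so these genes too needed kidney libraries to be tested.

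Pdgfrb went the other way, with 6.24, 8.14, 7.38 and 4.78 CPM in capsule macrophages and 2.23, 3.55, 2.45 and 2.47 CPM in kidney macrophages. No libraries overlapped, and the pooled level was 2.48-fold higher in the capsule (log2 fold change 1.51 ± 0.25, edgeR adjusted p = 0.00047, at most 0.00252 with a library left out). Its sister receptor gene Pdgfra averaged 34.4 ± 10.2 CPM in capsule and 1.57 ± 0.915 CPM in kidney macrophages, and all 8 fibroblast genes were higher in the capsule, summing to 603 to 873 CPM against 9.08 to 15.6 CPM in kidney macrophages. The 7 proximal tubule genes ran the opposite way, at 11.9 to 130 CPM in capsule and 1300 to 2458 CPM in kidney macrophages. Of 8 kidney endothelial genes tested 3 were called higher and 2 lower in capsule macrophages, with a median log2 fold change of 0.61. Over all genes 27.3% were called higher and 28.2% lower. Nostrin, a regulator of endothelial nitric oxide synthase on that list, was lower in capsule macrophages (15.2 ± 2.34 CPM in capsule, 53.5 ± 2.24 CPM in kidney). Platelet genes summed to 11.4 to 67.1 CPM in capsule and 1.5 to 2.95 CPM in kidney macrophages. Their part in the differences of the vascular genes was not tested.

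Ehd3 in these libraries turned on 1 sample. It had 0.0187, 7.32, 0.0646 and 0.254 CPM in capsule macrophages and 6.17, 7.82, 6.47 and 7.56 CPM in kidney macrophages. Capsule library 2 lay inside the kidney range and the other 3 far below it. The log2 fold change was -1.68 ± 1.20 (edgeR, adjusted p = 0.259), and -5.82 without that library (adjusted p = 3.7e-05). Kdr, at 2.64, 12.0, 2.28 and 7.10 CPM in capsule and 12.1, 6.79, 10.5 and 5.51 CPM in kidney macrophages, was also highest in that capsule library and did not pass the test (-0.32 ± 0.49, adjusted p = 0.600).

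Tek, Cdh5 and Rgs5 did not pass between the macrophage groups. Tek averaged 2.45 ± 1.28 CPM in capsule and 2.39 ± 0.759 CPM in kidney macrophages (log2 fold change 0.25 ± 0.41, edgeR adjusted p = 0.632), and Cdh5 0.878 ± 0.351 CPM in capsule and 0.647 ± 0.320 CPM in kidney macrophages (0.66 ± 0.49, adjusted p = 0.275). Rgs5 was 0, 0.74, 0.99 and 0.458 CPM in capsule and 0.832, 0.394, 1.04 and 0.261 CPM in kidney macrophages, with a sign that changed with the scaling (0.02 ± 0.91, adjusted p = 0.986). Of 25 other endothelial genes tested 5 were called higher in capsule macrophages, among them Cd34 and Eng, and 2 lower. Beside these and the list counts that follow, 27.3% of all genes tested were called higher and 28.2% lower. Lymphatic genes Pdpn, Mmrn1 and Prox1 were higher in the capsule (3 of 4 tested), and the arterial genes Jag1 and Bmx were lower (2 of 6). Of 8 venous and capillary genes tested 3 were called higher and 2 lower in the capsule, with a median log2 fold change of 1.22. Car4, a carbonic anhydrase gene of capillary endothelium, was among the lower ones (-5.14 ± 0.69, edgeR adjusted p = 0.000112). It had 0.708 ± 0.592 CPM in capsule and 29.5 ± 12.3 CPM in kidney macrophages.

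**Figure D3:**
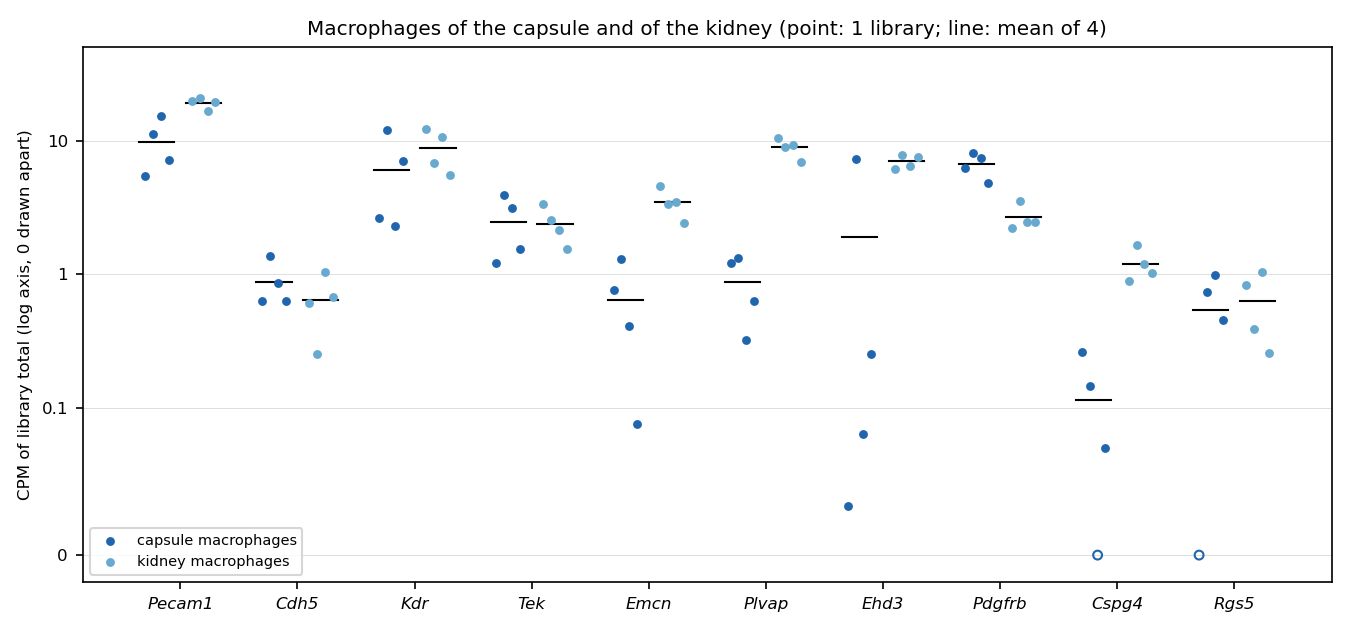
CPM of the 10 genes (log axis, with 0 drawn apart as open circles) in 4 capsule macrophage libraries (dark blue) and 4 kidney macrophage libraries (light blue), with lines at the group means. The groups are apart for Pecam1, Emcn, Plvap and Cspg4, lower in capsule, and for Pdgfrb, higher in capsule; 1 capsule library reaches the kidney level of Ehd3.

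The makeup of the vascular reads in each group was described by the ratio of each gene's summed reads to those of Cdh5, with no test. In capsule tissue Pecam1 stood at 1.07 reads per Cdh5 read in aged and 0.790 in young libraries. Outside tissue the same ratio was 4.73 in aged RCAM, 7.38 in young RCAM, 11.2 in capsule macrophages and 31.1 in kidney macrophages. Pdgfrb, at 0.579 in aged and 0.528 in young tissue, was 10.7 in aged RCAM, 5.58 in young RCAM, 7.70 in capsule macrophages and 4.30 in kidney macrophages.

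Kdr and Tek also stood above their tissue ratio in all RCAM and macrophage groups. Plvap and Ehd3 did not move as one: Plvap was 6.36 reads per Cdh5 read in aged RCAM, 0.470 in young RCAM, 1.03 in capsule macrophages and 14.2 in kidney macrophages, against 1.22 in aged and 0.766 in young tissue. The value in aged RCAM was 2.25 without library 3, which held 1503 of the 1933 Plvap reads, that in young RCAM was 0.257 without library 2, and that in young tissue 0.465 without library 3. Ehd3 was 0.872 in aged RCAM, 0.00662 in young RCAM, 2.01 in capsule macrophages and 11.3 in kidney macrophages, against 0.357 in aged and 0.15 in young tissue. Its value in capsule macrophages was 0.141, below both tissue ratios, without library 2, which held 297 of the 311 reads. Rgs5 stood below its tissue ratio in RCAM libraries, at 0.457 in aged and 0 in young RCAM against 0.883 in aged and 1.34 in young tissue. Cdh5 itself rested on 106 to 304 reads per group outside tissue, so these ratios carry its counting error too.

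**Figure D4:**
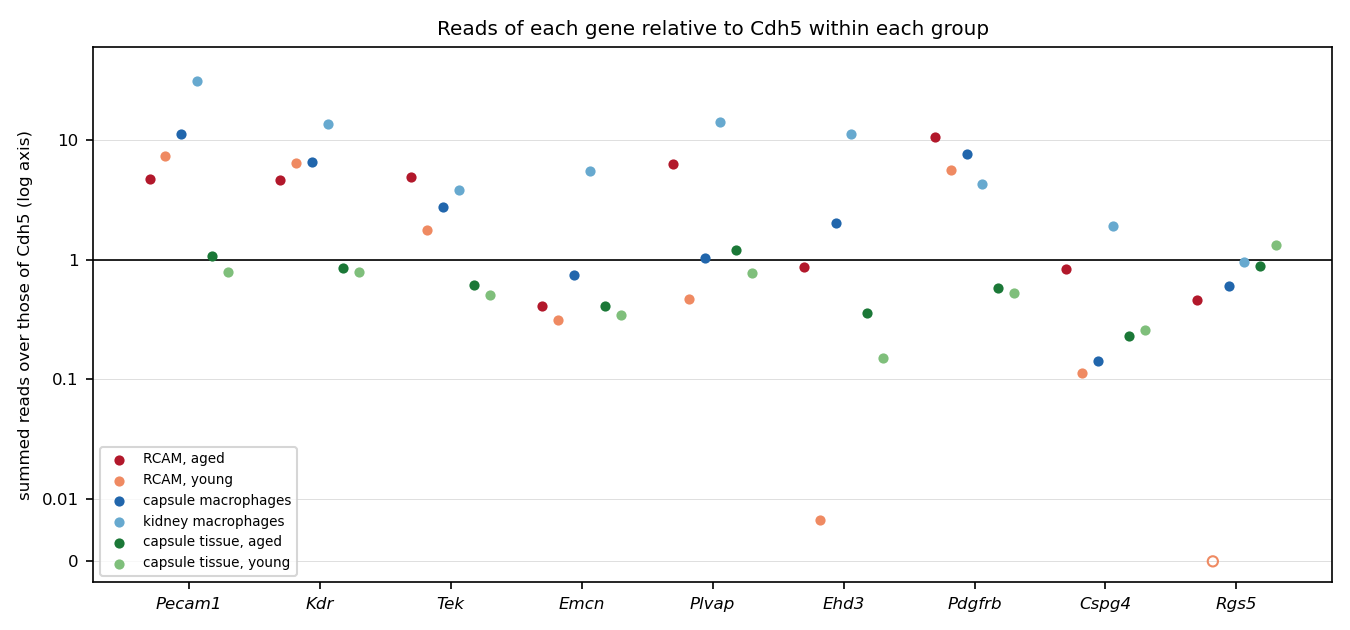
Summed reads of each gene over those of Cdh5 in each of the 6 groups (log axis, 0 drawn apart), with a line at 1. Pecam1, Kdr, Tek and Pdgfrb lie higher in all 4 RCAM and macrophage groups than in tissue, whereas Plvap, Ehd3 and Cspg4 lie both above and below their tissue ratio.

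Genes of most similar pattern were found by the root mean square difference of the centred log2(CPM + 0.5) means over the 6 groups. Cdh5 was nearest to Igfbp5, an IGF-binding protein gene on the kidney endothelial list (0.106 on the log2 scale), Tshz2 (0.185), Palmd (0.243), Itga7 (0.253) and Acss3 (0.260). Plvap had no close match: Sucnr1, the succinate receptor gene, came first at 0.737, then Ptprb, an endothelial phosphatase gene, at 0.747, Tinagl1 at 0.756, Cspg4 at 0.758 and Col18a1 at 0.782. The aged RCAM mean of Plvap, 10.6 CPM, rested on library 3 at 33.4 CPM. These distances were not computed without that library. Rgs5 was nearest to Tagln, a smooth muscle gene (0.366), and then to Scp2-ps2, Tcim, Stub1 and Chmp1a (0.421 to 0.428), the last 3 of which were at 0 in every RCAM and macrophage group. All of these genes had their highest mean in a tissue group, which follows from how they were picked.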

How the data were processed

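Bulk RNA-seq of 22 mouse libraries was used. The deposited files give raw read counts per gene, as whole numbers, and RPKM values that the authors computed with a gene width equal to the genomic span for 85.6% of genes. These RPKM values were left aside. GRCm38 is named in the submitters' processing notes; for aligner, counter and strand the answer is: not given in the sources used here. GENCODE M21 gave symbols and coordinates for 52489 of 52636 gene identifiers; 147 were not found.

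The counts went into edgeR 4.0.16 (R 4.3.3; quasi-likelihood F test, 2-sided, TMM scaling, filterByExpr), in fits of the groups compared. P-values were adjusted by Benjamini-Hochberg across every gene in a fit and called under 0.05. The errors of log2 fold changes are standard errors. DESeq2 1.42.0, limma 3.58.1 (voom), other scalings and filters, a replicate block, a fit of all 22 libraries and each library left out were alternatives. The fit was tested on simulated data. Intervals and floors of 3 counts cover counting error only.

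In capsule tissue, deviations from group means gave r = 0.201, 0.540 and 0.498 between same-numbered aged and young libraries (10441 genes whose mean log2 CPM was 3 or more) and -0.511 to 0.055 between others. The labels do not say what a number marks. Calls are given from the fit without the replicate block, and in tissue the blocked value stands beside calls that it changes.

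The genes and the 20 gene lists were chosen with earlier results of these data known. All 10 genes are named; of each list, up to 3 called genes of smallest p per comparison could be, with Csf1r, Adgre1, Col1a1, Adipoq, Slc34a1, Acta2, Flt1 and Notch3, and the 5 genes most like Cdh5, Plvap and Rgs5. Stub1 and Chmp1a were brought in after their values were seen. Another gene that this rule names is not reported here.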

Additional observations from a re-analysis of the deposited data

Results flagged for a closer look

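In 39 groups of 4 libraries with a range above 0, 1 library lay farther from the other 3 than Dixon's 95% limit in 5. The chance rate of about 1 in 20 assumes normally distributed values, which low read counts are not, so the 5 are only a description. In aged RCAM, library 3 was highest for Tek (14.6 CPM, the other 3 at 5.40 to 6.41) and for Plvap (33.4 CPM, the others 0.791 to 5.49). In young RCAM, library 2 was highest for Ehd3 (0.0201 CPM, which is 1 read) and for Cspg4 (0.301 CPM, 15 reads). The other young RCAM libraries had 0 reads of Ehd3, and a single read against 0 always passes the limit. In capsule macrophages, library 2 was highest for Ehd3 (7.32 CPM, the others 0.0187 to 0.254).

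The age difference differed between RCAM libraries and capsule tissue by the interaction test (edgeR, adjusted p = 0.00328 to 0.0265) for Tek by 2.30, for Ehd3 by 6.26 and for Rgs5 by 8.60 on the log2 scale. The sizes for Ehd3 and Rgs5 rest on 1 and 0 reads in young RCAM and are no bounds. No explanation was tested.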

How the results depend on the processing

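Both comparisons of RCAM libraries with capsule tissue kept all 10 genes lower in every alternative run. In capsule tissue, 1 of the 10 genes was called with age (0 as reported) with no expression filter, with DESeq2 and with the replicate block, Ehd3 each time. All genes called there numbered 39 as reported, 1095 with no filter, 1876 with DESeq2, 25 with limma-voom, 2196 with the block, 3097 in the fit of all 22 libraries, 487 without both libraries numbered 2, and 0 to 387 with 1 library left out; the share called higher was 64.1% as reported and 36.8%, 40.2% and 42.9% with no filter, DESeq2 and the block. With age in RCAM, 2 of the 10 genes were called with a filter of at least 1 CPM, under which Ehd3, Rgs5 and others were not tested, 3 with limma-voom, 3 with the block (not taken to pair these libraries; Rgs5 adjusted p = 0.0694) and 3 to 5 with 1 library left out; all genes called were 729 as reported, 1441 with DESeq2, 336 with the block (83.3% higher, against 71.3%) and 451 to 629 with 1 library left out. In the interaction, 2 of the 10 were called with limma-voom (Ehd3 and Tek; Rgs5 adjusted p = 0.0606), 5 with DESeq2, 5 in the fit of all 22 libraries (Ehd3 not among them) and 1 to 5 with 1 library left out; all genes called were 952 as reported, 2355 with DESeq2, 2204 in the fit of all 22 libraries and 282 to 1594 with 1 library left out. Scaling by library totals alone moved the median of all genes to -0.24 between capsule and kidney macrophages, where 35.1% of called genes were then higher in place of 49.2%, to -0.48 between aged RCAM and aged tissue (35.4% in place of 45.6%), and changed the interaction's share to 45.0% from 61.9%. The block changed no other call of the 10 genes between aged and young capsule tissue.

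Signs changed only for values that had not passed. In capsule tissue, Cdh5 became -0.000163 without immunoglobulin, mitochondrial and haemoglobin genes in the scaling, -0.010 with limma-voom and -0.15 to 0.22 with 1 library left out, and Cspg4 0.026 in the fit of all 22 libraries, -0.31 to 0.12 with 1 library left out and 0.18 without both libraries numbered 2. Between macrophages, Tek was -0.066 (without capsule library 2) to 0.47 with 1 library left out, and Rgs5 -0.20 with library totals alone, -1.13 with limma-voom, -0.22 with the block and -0.43 to 0.44 with 1 library left out. In the interaction, Pecam1 was -0.023 with RLE scaling, -0.12 with library totals alone, -0.022 with DESeq2, -0.18 in the fit of all 22 libraries, -0.21 to 0.24 with 1 library left out and -0.37 without both tissue libraries numbered 2. Ehd3 between macrophages became -4.36 with the block (adjusted p = 0.0258) and -4.76 with limma-voom (0.00186), and DESeq2 gave it no adjusted p. The causes were not tested. In young RCAM library 2, 1 read is 0.0201 CPM, a depth that limits Ehd3, Rgs5 and Cspg4 in RCAM libraries.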
